A study of Homo sapiens with 4 samples.

Results

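Day 4 of a stepwise differentiation of H1 human embryonic stem cells toward blood was compared with day 3, a pair that spans the second day in VEGF and bFGF. None of the 4 libraries is from a day 4 culture without these factors. Effects of the factors, of elapsed time and of the single libraries cannot be told apart. The members were the genes with at least 1 CPM (expected counts scaled to an equal library total) in either library, 15379 of the 19390 genes listed in any of the 4 libraries of the series (days 0, 2, 3 and 4). H1 is an established line, and the cells were wild type. Every day is 1 bulk RNA-seq library, so no difference below has a replicate check, and every interval covers counting error only. The cultures of days 2, 3 and 4 had spent days 0 to 2 in activin A at 40 ng/ml and BMP4 at 50 ng/ml, in a custom form of mTeSR1. Day 0 precedes that step. The day 3 cells had then had 1 day, and the day 4 cells 2 days, of VEGF at 40 ng/ml and bFGF at 50 ng/ml. Whether the 4 days came from 1 culture or from several is not given in the sources used here. At the minimum, SAPCD1 was just inside with 1.001 CPM at day 4, and H2BC5 just outside with 0.984 CPM at day 3.

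As background, blood and vessel cells share an origin in mesoderm that has left the primitive streak. VEGF acts through the receptor KDR on that mesoderm, ETS factors such as ETV2 and FLI1 open the vessel program, and TAL1 with LMO2 and GATA2 directs part of it to haemogenic endothelium, from which RUNX1 drives the release of blood cells. Basic FGF keeps ERK signalling active and supports mesodermal progenitors. The streak genes EOMES, TBXT and MIXL1 mark the stage before.

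Fold is given as the ratio of CPM with its exact 95% interval. Calls of 2-fold were made on log2(CPM + 1), as a difference of 1 or more in size, a scale that understates the change of genes near the minimum. Totals were 5.20 and 5.49 M expected counts at days 3 and 4, with 1 count equal to 0.192 and 0.182 CPM. The libraries were alike for most genes, with a median log2 ratio of 0.003 and the central 90% between -0.94 and 0.79. At least 2-fold higher at day 4 were 462 genes (3.00%) and at least 2-fold lower 639 genes (4.16%). Of the 462, 386 had their highest level of the 4 days at day 4, and 75 had 0 counts at day 3. The 639 lower genes were of mixed history: 292 had their highest level at day 3, 187 at day 2 and 160 at day 0. Past 4-fold were 59 genes that were higher (0.384%) and 35 that were lower (0.228%).

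**Figure D1:**
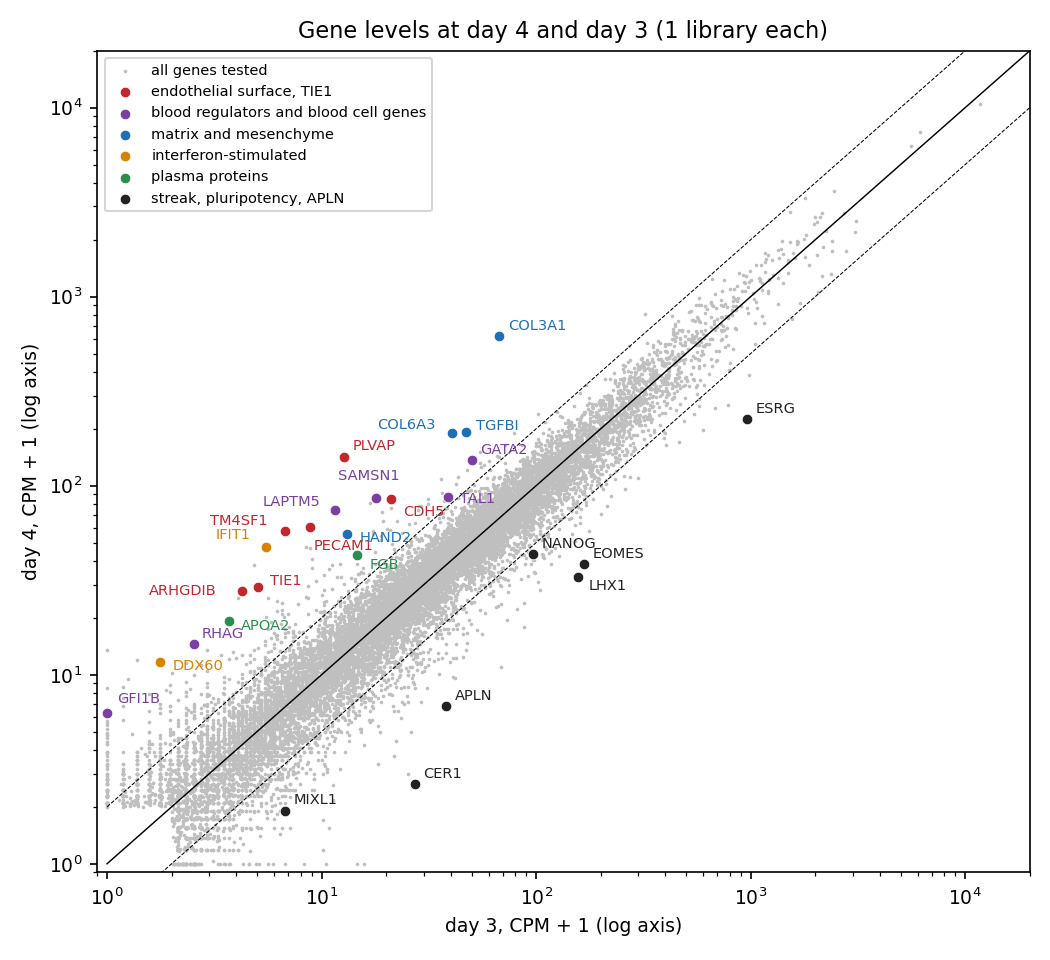
Each grey point is 1 of the 15379 genes, with CPM + 1 at day 3 on the x axis and at day 4 on the y axis, both log axes. The solid line marks equal levels and the dashed lines 2-fold. PLVAP, COL3A1 and IFIT1 lie farthest above the line among the coloured genes, and CER1, APLN and LHX1 below it.

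One property of the 2 libraries touches many results. The tested genes were ordered by deposited transcript length and divided into 10 groups of equal size. The median log2 ratio of day 4 over day 3 went from 0.31 in the group of the shortest (63 to 1277 bases) through 0.00 in the sixth to -0.36 in the longest (6531 to 91671 bases). Day 3 over day 2 had medians between 0.00 and 0.05 in the same groups, so the slope was not seen a day earlier. The mean length weighted by counts was 4493 bases at day 3, the highest of the 4 days, and 3996 bases at day 4, the lowest. A length-adjusted ratio, which subtracts the median of genes of like length, is therefore given beside some results, though not all that it moves. It left 417 genes (2.71%) higher and 632 (4.11%) lower, with 360 and 503 of them in the unadjusted sets. The cause of this slope was not tested.

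**Figure D2:**
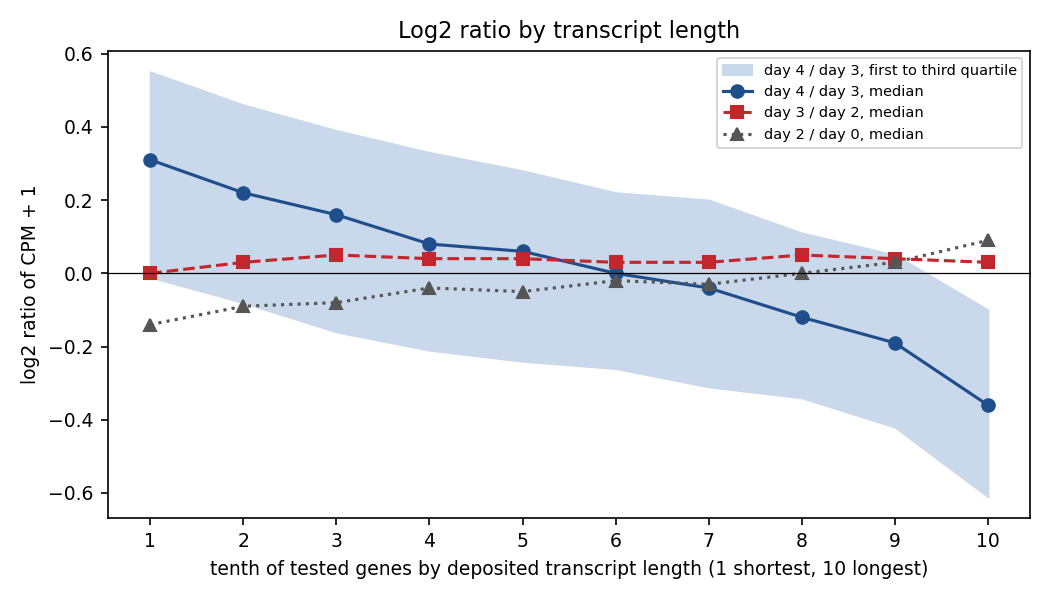
The x axis divides the tested genes into 10 equal groups by deposited transcript length, and the y axis is the median log2 ratio of CPM + 1 between successive libraries. The band is the interquartile range for day 4 over day 3, whose median falls from 0.31 to -0.36, and the other comparisons stay between -0.14 and 0.09.

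The largest ratios at day 4 included genes of vessel wall, blood cells, matrix and antiviral response. With at least 10 CPM in either library and a symbol, the 15 highest ratios were those of PLVAP, COL3A1, FCN3, IFIT1, TM4SF1, MASP1, PECAM1, DDX60, ARHGDIB, LAPTM5, ISG15, TIE1, FERMT3, RHAG and HOPX. PLVAP, the protein of the diaphragms that span endothelial pores, was at 0.198, 0.192, 11.7 and 142 CPM on days 0, 2, 3 and 4, 12.1-fold higher at day 4 than day 3 (9.30 to 15.9). FCN3, a secreted lectin that starts the lectin pathway of complement, had 2 counts at day 3 and 60 at day 4 (28.4-fold, with a wide interval of 7.53 to 240.0). MASP1, the protease that pairs with such lectins, was at 3.84 CPM at day 3 and 37.0 CPM at day 4 (9.61-fold, 6.06 to 16.1). FCN3 was thus close to the floor of detection at day 3, whereas PLVAP and MASP1 were measured on both days. FERMT3, the kindlin that activates integrins in blood cells, was at 1.54 and 13.7 CPM (8.88-fold, 4.28 to 21.3). HOPX, a homeodomain protein that does not bind DNA by itself, was at 7.50 and 46.4 CPM (6.19-fold, 4.41 to 8.91).

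The 15 lowest ratios, by the same rule, were those of SERF1A, TGIF2-RAB5IF, CER1, PPIAP46, SHISA3, GPRIN3, APLN, ADAMTS5, HERC2P3, DAB1, ATP12A, SHISA6, LHX1, PWAR5 and EOMES. For 3 of these, sums were taken with listed genes that share their sequence, and none of the 3 sums was lower at day 4. No such sum was taken for the others, HERC2P3 among them. SERF1A was at 14.8 CPM at day 3 and had 0 counts at day 4, but SERF1A and SERF1B together were at 23.8 and 25.3 CPM. TGIF2-RAB5IF was at 13.6 CPM and then 0, and with TGIF2 and RAB5IF it summed to 110.4 and 117.3 CPM. PPIAP46, a pseudogene of PPIA, summed with PPIA to 943.9 and 1296 CPM. The entries of these 3, taken singly, are therefore uncertain. SHISA3, an inhibitor of WNT and FGF receptor maturation, was at 5.95, 30.6, 67.5 and 10.01 CPM on days 0, 2, 3 and 4, 6.74-fold lower at day 4 (5.06 to 9.12). ADAMTS5, a protease of the matrix proteoglycan aggrecan, was 7.31-fold lower (17.3 and 2.37 CPM), and ATP12A, a proton and potassium pump, 6.11-fold lower (21.1 and 3.46 CPM).

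Genes of the endothelial surface and of endothelial junctions were higher in large number. Of 42 such genes 37 were tested, 6 of them through their day 4 level alone and 1 through day 3 alone. Genes that reach the minimum on 1 day alone had to differ, here and in the lists below, so counts that hold them support nothing by themselves. At least 2-fold higher were 23 and at least 2-fold lower 2, and the median log2 ratio was 1.30 (1.32 length-adjusted) against 0.003 over all genes, of which 3.00% were higher and 4.16% lower. Every list count below is to be read beside these 2 shares. CDH5, the cadherin of endothelial junctions, was at 0.595, 0.192, 19.99 and 83.6 CPM on days 0, 2, 3 and 4 (4.18-fold, 3.37 to 5.22). PECAM1, an adhesion molecule of the same junctions, was at 2.17, 2.78, 7.79 and 59.7 CPM (7.58-fold, 5.47 to 10.8). TM4SF1, a membrane protein abundant in endothelium, was at 1.59, 0, 5.77 and 56.6 CPM (9.82-fold, 6.74 to 14.8). Each of these genes was thus above its day 2 level at day 3, with most of its excess at day 4. In bulk RNA, more cells of a type and more RNA per cell cannot be told apart, here or below.

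Other members of that group were less abundant. MMRN1, a secreted protein of endothelium and platelets, had 0 counts at day 3 and 7.46 CPM at day 4, at least 12.9-fold higher against a floor of 3 counts. ARHGDIB, a regulator of small GTPases in blood cells, was at 3.27 and 26.8 CPM (8.19-fold). CD34, the surface sialomucin of endothelium and blood progenitors, was at 56.1 and 127 CPM (2.27-fold, 1.98 to 2.61), with 28.5 CPM already present at day 2. ENG, the TGF-beta co-receptor endoglin, was at 8.46 and 30.2 CPM (3.57-fold). To show how far the count reaches, further members were picked after their values were seen. EGFL7, a secreted vessel protein, was at 18.1 and 71.5 CPM, STAB1, a scavenger receptor of sinusoids, at 10.2 and 37.1 CPM, and ICAM2, an adhesion molecule, at 0.961 and 7.83 CPM.

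Apelin ran against its group. APLN, the ligand of the receptor APLNR and a marker of sprouting tip cells, was at 1.39, 0.577, 37.1 and 5.83 CPM on days 0, 2, 3 and 4, 6.37-fold lower at day 4 (4.36 to 9.57). APLN was thus high in 1 of the 4 libraries. APLNR, which also marks early mesoderm, was at 3.37, 774, 1049 and 722 CPM and stayed within 2-fold. STAB2 was the other member lower at day 4, with 8 counts at day 3 and 1 at day 4. PODXL, a sialomucin of stem cells and vessels, was at 2395 and 1748 CPM, and VWF, the platelet adhesion protein, at 33.4 and 24.9 CPM, a difference that the length adjustment took to 0.01 on the log2 scale.

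**Figure D3:**
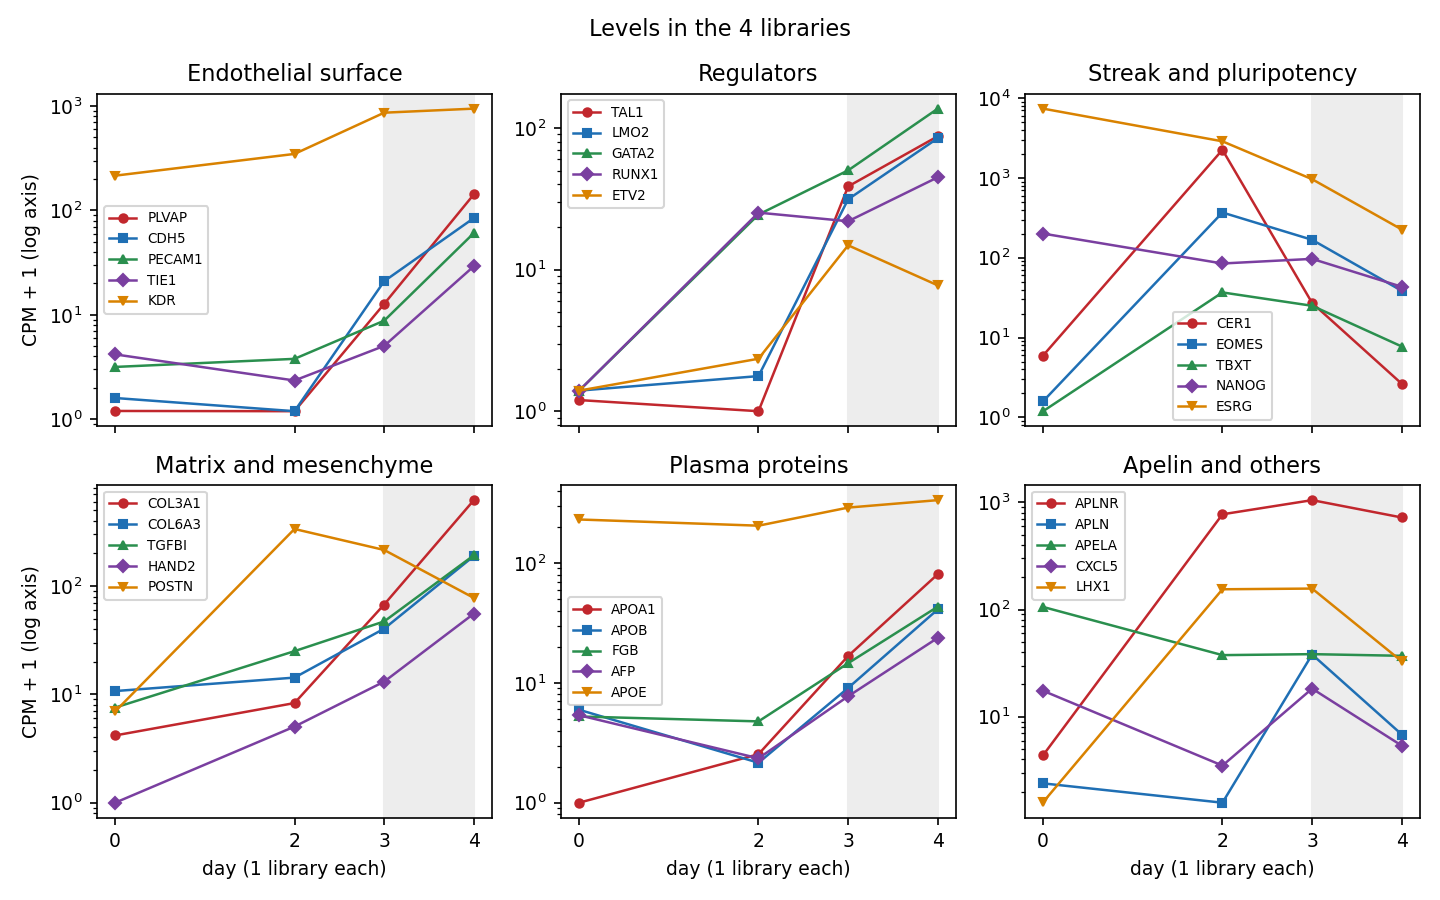
Each panel plots CPM + 1 on a log axis against the day of differentiation for 5 genes, 1 library per day, and the shaded interval is day 3 to day 4. PLVAP, PECAM1 and TIE1 are the steepest of their panel in that interval, and COL3A1 (rising) and CER1 (falling) of theirs. KDR is nearly flat, and ETV2, APLN, CXCL5 and LHX1 turn down in it.

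The receptors that read the added VEGF moved little. Of 15 VEGF and TIE pathway genes 13 were tested (VEGFC through day 4 alone), 3 were at least 2-fold higher, none was 2-fold lower, and the median log2 ratio was 0.39. KDR, the main signalling receptor for VEGF, was at 863 and 944 CPM (1.09-fold, 1.05 to 1.14), and FLT1, a receptor that also traps VEGF, at 836 and 1092 CPM. Per length, FLT1 stood at 166 and 220 FPKM and KDR at 141 and 155 FPKM, above TEK at 20.4 and 30.4 FPKM on the same days. TIE1, an orphan partner of the angiopoietin receptor TEK, was the exception at 4.04 and 28.2 CPM (6.99-fold, 4.42 to 11.6). FLT4, the receptor for VEGFC and VEGFD, was at 6.09 and 16.9 CPM (2.75-fold), and its ligand VEGFC had 1 count at day 3 and 10 at day 4. The angiopoietin receptor TEK itself was at 99.0 and 147 CPM, below 2-fold. The ligand genes VEGFA (35.6 and 51.7 CPM) and ANGPT2 (113 and 134 CPM) were also within 2-fold.

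The transcription factors of vessel and blood fate were higher as a group, with ETV2 on the other side. Of 42 regulators 41 were tested, 4 through day 4 alone and 1 through day 3 alone. At least 2-fold higher were 14 and lower 1, and the median log2 ratio was 0.63, also when length-adjusted. Within the TAL1 complex 5 of 8 were higher. TAL1, the bHLH factor at its centre, was at 0.198, 0, 37.7 and 86.5 CPM on days 0, 2, 3 and 4 (2.30-fold, 1.94 to 2.72). LMO2, its bridging subunit, was at 30.4 and 83.7 CPM (2.76-fold), and GATA2, its DNA-binding partner in progenitors, at 49.2 and 136 CPM (2.76-fold). LYL1, a relative of TAL1, was at 3.84 and 12.6 CPM. GATA1, the erythroid partner, had 0 counts at day 3 and 1.82 CPM at day 4, at least 3.16-fold higher. The broadly expressed partners TCF3 (219 and 229 CPM) and LDB1 (99.9 and 87.2 CPM) hardly differed.

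Among ETS factors, ETV2, the transient initiator of endothelial fate, was at 0.397, 1.35, 13.8 and 6.74 CPM on days 0, 2, 3 and 4. That is 2.05-fold lower in CPM at day 4 (1.36 to 3.14) and -0.94 on the log2(CPM + 1) scale, so it was not counted as lower, but its length-adjusted value of -1.18 passes. Its successors in the program were higher: FLI1 stood at 46.8 and 121 CPM (2.58-fold) and ERG at 17.9 and 53.5 CPM (2.99-fold). RUNX1, the factor needed for the step from endothelium to blood, was at 0.397, 24.2, 20.9 and 43.9 CPM on the 4 days (2.09-fold). It was thus nearly flat from day 2 to day 3 and highest in the day 4 library. Its co-repressor partner CBFA2T3 was at 1.92 and 9.47 CPM (4.93-fold), and its relative RUNX3 was the regulator that was lower (4.04 and 0.910 CPM).

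Other regulators of the haemogenic step had low day 3 levels. GFI1B, a repressor that shuts off endothelial genes in emerging blood cells, had 0 counts at day 3 and 5.28 CPM at day 4, at least 9.16-fold higher. KLF1, the erythroid master factor, was at 0.961 and 4.73 CPM. HHEX, a homeobox factor of haemangioblasts and endoderm, was at 7.69 and 24.4 CPM, and MEF2C, a MADS factor of vessel and heart, at 5.57 and 21.1 CPM. SOX17, used by both endoderm and arterial endothelium, was lower within 2-fold, at 88.6 and 55.3 CPM.

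Because GATA factors and TAL1 bind one composite element, the window of 250 bases before each RefSeq start was searched on both strands for AGATAA. It was present in 6 of the 30 regulators with a window, in 2 of the 12 that were at least 2-fold higher (TAL1 and ERG), and in 7.70% of the 12018 tested genes with a window. The 100 bases before the TAL1 start are shown, since TAL1 sits at the centre of this group (RefSeq table, GRCh38.p14, chr1:47232336-47232435, minus strand, 5′ to 3′). Capitals mark the match, which reads as its complement on this strand.
TAL1: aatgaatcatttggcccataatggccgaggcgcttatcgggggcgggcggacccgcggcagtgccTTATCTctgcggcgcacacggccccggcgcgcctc

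Genes of finished blood cells were mostly low. Of 68 genes 40 were tested, 6 through day 4 alone and 1 through day 3 alone. The 2-fold calls were 10 higher and 1 lower, and the median log2 ratio was 0.25. LAPTM5, a lysosomal membrane protein of blood cells, was at 10.6 and 73.5 CPM (6.96-fold, 5.24 to 9.40). SAMSN1, an adaptor of blood cells, was at 0 CPM at day 2, 16.9 at day 3 and 84.6 at day 4 (5.005-fold). LCP2, an adaptor of T cell and platelet signalling, was at 1.35 and 8.19 CPM, and VAV1, an exchange factor of the same pathways, had 0 counts at day 3 and 4.19 CPM at day 4. PTPRC, the pan-leukocyte surface phosphatase CD45, had 6 counts at day 3 and 4 at day 4, a difference not detectable at this depth.

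The erythroid genes showed a first low signal. RHAG, the Rh-associated glycoprotein of red cells, was at 0, 1.73, 1.54 and 13.5 CPM on days 0, 2, 3 and 4 (8.76-fold, 4.22 to 21.04). HBE1, the embryonic beta-like globin, had 0 counts at day 3 and 5 at day 4, under the minimum of 1 CPM and with a counting interval that includes no difference, and HBZ, its alpha-like partner, had none. ITGA2B, the platelet integrin CD41, was at 1.73 and 5.64 CPM (3.26-fold), while the platelet genes PF4 and GP9 had no counts in either library. ANK1, the ankyrin of the red cell skeleton, was lower (23.3 and 7.65 CPM), and KIT, the stem cell factor receptor, was at 34.0 and 18.9 CPM.

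Summed markers of the cell types such a culture could hold were compared as a check of the labels. The 6 endothelial markers summed to 151.8 CPM at day 3 and 466.4 CPM at day 4, and all 6 reached 1 CPM at day 4. Erythroid markers summed to 0.192 and 7.32 CPM, with HBZ at 0 in both. Megakaryocyte markers summed to 1.73 and 5.64 CPM, all of it from ITGA2B, since PF4 and GP9 had no counts. Leukocyte markers summed to 95.1 and 87.4 CPM. Most of that sum was LCP1, at 68.4 and 59.7 CPM and already at 79.8 CPM at day 2. Markers of undifferentiated cells summed to 456.4 and 311.5 CPM, so they were lower and still present. Cardiomyocyte markers were at 39.0 and 45.8 CPM, smooth muscle markers at 59.9 and 82.5 CPM, and neural markers at 2.31 and 1.82 CPM, with SOX1 at 0 in both. Markers of yolk sac or liver endoderm summed to 44.4 and 160.9 CPM, and those of amnion or trophoblast to 174.1 and 125.1 CPM. Their part in the differences of other genes was not tested.

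Some NOTCH genes tied to vessels were higher at low levels. Of 22 genes 19 were tested, 2 of them (MFNG and HEYL) through day 4 alone, which had to differ. At the 2-fold threshold 4 were at least 2-fold higher and 1 lower, and the median log2 ratio was 0.13. NOTCH4, the endothelial receptor, was at 1.54 and 5.10 CPM (3.31-fold), and JAG2, a ligand, at 4.80 and 18.0 CPM (3.75-fold). MFNG, which adds sugars to NOTCH receptors, had 0 counts at day 3 and 3.28 CPM at day 4, and the target HEYL had 1 and 11 counts. The more abundant receptors were within 2-fold. NOTCH3 was at 214 and 127 CPM, NOTCH2 at 193 and 143 CPM, and NOTCH1 at 66.5 and 73.0 CPM. The log2 ratios of NOTCH3 and NOTCH2 were -0.74 and -0.43, and -0.44 and 0.13 when length-adjusted. HEY1, HEY2 and HES1 were also within 2-fold. DLL3, a ligand-like inhibitor, was lower (8.26 and 1.46 CPM).

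BMP pathway genes were split between ligands, with no 2-fold change among targets. Of 36 tested genes 4 were at least 2-fold higher and 1 lower, against 3.00% and 4.16% over all genes. BMP6 was at 64.4 and 142 CPM (2.21-fold) and BMP10, a ligand of endothelium and heart, at 7.69 and 19.8 CPM (2.58-fold), whereas BMP2 was lower at 153 and 71.2 CPM (2.15-fold). The receptors for BMP10 include ENG, above, and ACVRL1 at 26.1 and 38.7 CPM. SOST, a secreted inhibitor of WNT and BMP signals, was at 0, 7.88 and 46.1 CPM on days 2, 3 and 4 (5.84-fold). None of the 11 tested BMP target genes passed 2-fold, among them ID1 (200.3 and 215 CPM) and ID4 (106 and 53.7 CPM).

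Streak genes were lower together. Of 19 streak and mesendoderm factors 15 were tested, 2 through day 3 alone (MIXL1 and MESP2), which had to differ. At least 2-fold lower were 9 and 1 was higher (HHEX), and the median log2 ratio was -1.21 (-1.36 length-adjusted). EOMES, a T-box factor that opens mesendoderm genes, was at 0.595, 367, 167 and 37.5 CPM on days 0, 2, 3 and 4 (4.44-fold lower, 3.81 to 5.20). LHX1, a homeobox factor of the anterior streak, was at 0.595, 154, 156 and 31.9 CPM (4.90-fold lower, 4.16 to 5.80). TBXT, the T-box factor brachyury, was at 24.0 and 6.74 CPM (3.57-fold lower), and MIXL1, a homeobox factor of the streak, at 56.4 CPM at day 2, 5.77 at day 3 and 0.910 at day 4. LHX1 therefore held its day 2 level for a day, EOMES and TBXT were part of the way down at day 3, and MIXL1 was low by then. CER1, a secreted inhibitor of NODAL and BMP, was at 2243, 26.1 and 1.64 CPM on days 2, 3 and 4 (16.0-fold lower at day 4 than day 3). In the NODAL axis, with 1 gene tested through day 4 alone and 2 through day 3 alone, 2 of 13 tested genes were at least 2-fold lower, CER1 and the co-receptor CFC1. Length-adjusted, 4 of the 13 were at least 2-fold lower.

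**Figure D4:**
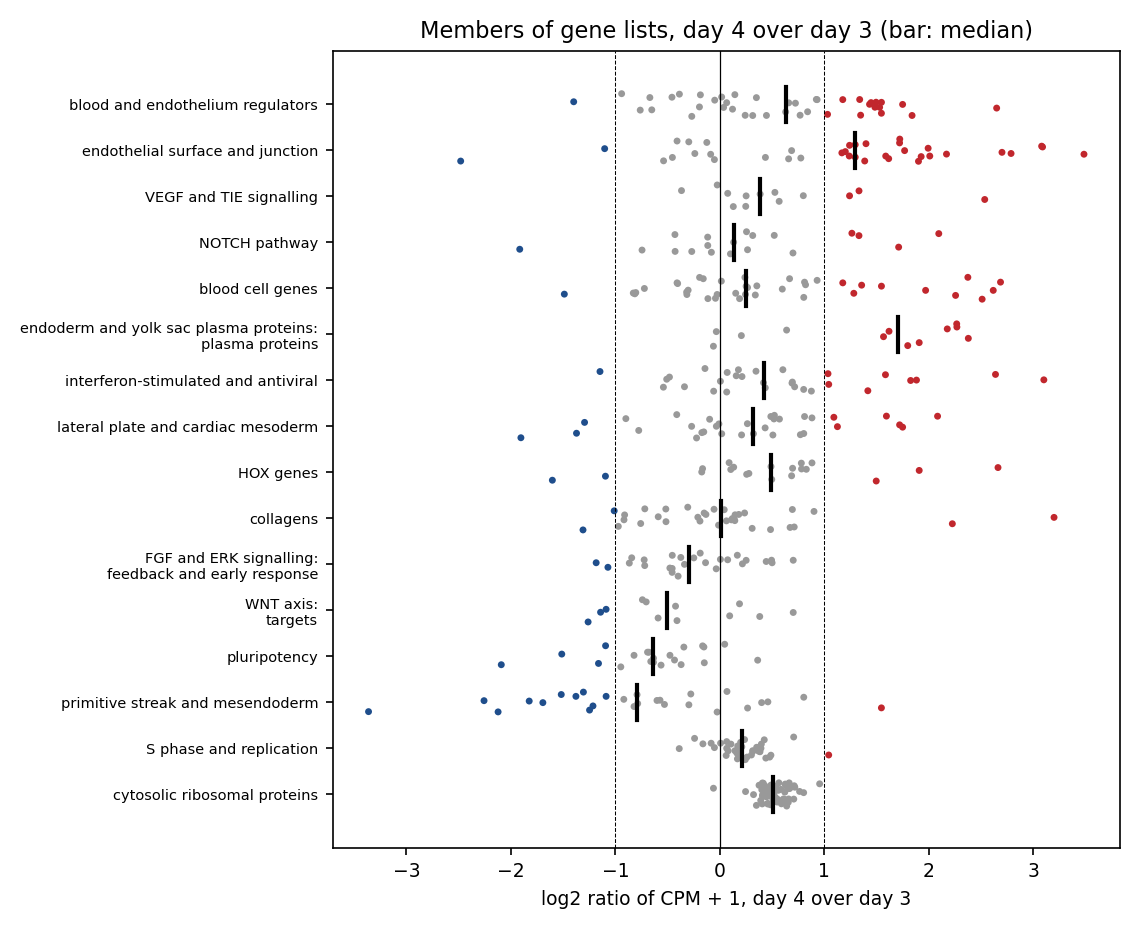
Each point is the log2 ratio of CPM + 1, day 4 over day 3, of 1 tested member of a list, red where at least 1 and blue where -1 or less, and each bar is the list's median. Endothelial surface genes and plasma proteins have the highest medians (1.30 and 1.71), streak genes the lowest, and ribosomal protein genes form a narrow cluster at 0.51.

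Pluripotency genes were lower without being gone. Of 22 genes 21 were tested, 1 through day 4 alone. At least 2-fold lower were 4 and none was higher, and the median was -0.63. ESRG, a non-coding RNA abundant in pluripotent cells, was at 7359, 2866, 961 and 225 CPM on days 0, 2, 3 and 4 (4.28-fold lower than day 3). NANOG, a core factor, was at 199.6, 83.7, 95.8 and 42.3 CPM (2.27-fold lower, 1.94 to 2.66). POU5F1, the factor OCT4, was at 962, 396, 203 and 127 CPM, 1.60-fold lower and under the threshold. ESRG and POU5F1 thus went down in every step, while NANOG paused between days 2 and 3. VRTN (65.2 and 22.2 CPM) and L1TD1 (232 and 108 CPM), both abundant in stem cells, were the other lower genes. SOX2, the partner of POU5F1, was already near the floor, with 4 and 7 counts.

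Genes of FGF and ERK signalling differed little as a list, with bFGF in the medium on both days. Of 47 genes 40 were tested, 1 through day 3 alone, and 1 was at least 2-fold higher and 3 lower, and the median was -0.18. SPRY4, an inhibitor induced by ERK, was at 398 and 189 CPM (2.11-fold lower), and DUSP6, the ERK phosphatase, at 397 and 241 CPM. IL17RD, another inhibitor of FGF signals, was at 255 and 112 CPM. The length-adjusted log2 ratios of IL17RD and SPRY4 were -0.76 and -0.93, so none of the 26 tested feedback and early response genes passed 2-fold after that adjustment. FGF17, a ligand, was lower (21.7 and 5.46 CPM, 3.98-fold), and FGF19, a ligand of another class that acts as a hormone, higher (20.4 and 48.4 CPM, 2.38-fold). The receptor FGFR1 was at 378 and 336 CPM. CCND1, the G1 cyclin, was at 556 and 906 CPM.

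WNT genes lay on both sides. Of 65 genes 49 were tested, 1 through day 4 alone and 3 through day 3 alone. At least 2-fold higher were 2, a share near that over all genes, and at least 2-fold lower 8, and the median was -0.41 (-0.29 length-adjusted). LGR5, a receptor for R-spondins and a WNT target, was at 108 and 40.6 CPM (2.67-fold lower), and the intracellular inhibitor NKD1 at 110 and 45.5 CPM, which the length adjustment brought to -0.84. SFRP2, a secreted antagonist, was at 161 and 74.3 CPM. On the other side, RSPO3, an R-spondin needed in vessel development, was at 7.31, 28.1 and 77.0 CPM on days 2, 3 and 4 (2.74-fold). WNT11, a ligand of heart mesoderm, was at 3.27 and 8.01 CPM, a log2 ratio of 1.08 that the length adjustment brought to 0.92.

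Factors of lateral plate and heart mesoderm were mixed. Of 33 tested genes 6 were at least 2-fold higher and 3 lower, against 3.00% and 4.16% over all genes. Of the 33, 2 were tested through day 4 alone and 1 through day 3 alone. HAND2, a bHLH factor of heart and limb mesenchyme, was at 4.04, 12.1 and 54.6 CPM on days 2, 3 and 4 (4.51-fold), while its relative HAND1 was at 440 and 595 CPM. PRRX1, a factor of loose mesenchyme, was at 5.96 and 20.02 CPM, and TCF21, of the epicardium, at 1.35 and 6.74 CPM. IRX3, a homeobox factor, was lower (14.8 and 3.23 CPM). PDGFRA, the receptor of mesoderm and mesenchyme, was at 81.7 and 98.3 CPM and GATA4 at 124 and 126 CPM. Contractile genes differed little as a list: ACTC1, the cardiac actin, was at 1522 and 2812 CPM, and the giant TTN gene at 258 and 95.03 CPM with a length-adjusted log2 ratio of -0.87 in place of -1.43.

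HOX genes at low levels included 3 of the HOXC cluster that reached the minimum at day 4 alone, and so had to differ. Of 39 genes 20 were tested, 3 through day 4 alone and 2 through day 3 alone, 3 were at least 2-fold higher and 2 lower, and the median was 0.49. HOXC8 had 0 CPM at day 2, 1 count at day 3 and 36 at day 4, HOXC6 was at 0.769 and 5.64 CPM, and HOXC4 at 0.192 and 2.37 CPM. These 3 lie in 1 gene cluster. Among the more abundant HOXB genes, none of which passed 2-fold, HOXB9 was at 25.98, 83.0 and 134 CPM on days 2, 3 and 4. HOXD13, a posterior gene, reached the minimum at day 3 alone (2.69 and 0.728 CPM).

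Single matrix genes differed in both directions. Of 34 tested collagen genes, 1 of them through day 3 alone, 2 were at least 2-fold higher and 2 lower. Length-adjusted, the counts were 3 and 1. Over all genes 3.00% were higher and 4.16% lower, so these few collagen genes are described singly. COL3A1, the fibrillar collagen of vessel walls and loose tissue, was at 3.18, 7.31, 66.5 and 619 CPM on days 0, 2, 3 and 4 (9.31-fold, 8.34 to 10.4). COL6A3, a chain of beaded filaments, was at 39.4 and 188 CPM (4.77-fold), and COL1A1 at 661 and 1236 CPM, 1.87-fold, past 2-fold only when length-adjusted (1.11). COL5A2, which regulates fibril width, went the other way at 1051 and 558 CPM. The basement membrane collagen COL4A1 was at 1264 and 1566 CPM. Per length, COL3A1 reached 112 FPKM at day 4 and COL1A1 207 FPKM.

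Of 48 other matrix genes tested 5 were at least 2-fold higher and 7 lower, against 3.00% and 4.16% over all genes. Of the 48, 1 was tested through day 4 alone and 2 through day 3 alone. TGFBI, an adhesion protein induced by TGF-beta, was at 46.1 and 191 CPM (4.14-fold, 3.60 to 4.79), and BGN, a small proteoglycan, at 19.8 and 57.5 CPM. POSTN, periostin, was lower (335, 214 and 76.6 CPM on days 2, 3 and 4), as was HAS2, the enzyme that makes hyaluronan, picked after its value was seen (541 and 238 CPM). FN1, fibronectin, was the most abundant gene on both days, at 11680 and 10429 CPM, with a log2 ratio of -0.16 that turned to 0.26 when length-adjusted.

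Growth factor and retinoid genes held several single differences. Of the imprinted and IGF axis genes, MEST was at 320 and 810 CPM (2.53-fold), IGF2, the fetal growth factor, at 270 and 547 CPM (2.03-fold) and the binding protein IGFBP3 at 41.5 and 101 CPM. PEG10, another imprinted gene, was lower within 2-fold (2066 and 1055 CPM). ALDH1A1, an enzyme that makes retinoic acid, had 1 count at day 3 and 32 at day 4, and CYP26A1, which degrades it, was lower (202, 114 and 43.1 CPM on days 2, 3 and 4). HGF, a growth factor of mesenchyme, was at 26.5 and 10.7 CPM. The chemokine CXCL5 was at 2.50, 17.3 and 4.37 CPM on days 2, 3 and 4, a course with 1 high library, as for APLN.

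Factors of other germ layers were mixed. Of 24 anterior neural genes 9 were tested, 2 through day 4 alone, and at the 2-fold threshold 4 were lower and 1 was higher. NES, an intermediate filament gene and the most abundant of them, was at 672 and 713 CPM, and SNAI2, the most abundant of the neural crest genes, at 106 and 132 CPM. Among the lower were ZIC2 (41.7 and 16.4 CPM) and ZIC5 (16.3 and 5.64 CPM), zinc finger factors of neural ectoderm, and OTX2 (42.3 and 17.7 CPM), a homeobox factor of epiblast and forebrain. The AP-2 factors of amnion and surface ectoderm, TFAP2A (74.4 and 35.3 CPM) and TFAP2C (116 and 44.2 CPM), were lower as well. GATA3, which amnion also expresses, hardly differed at 97.4 and 85.6 CPM.

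Genes of plasma proteins made by yolk sac and liver endoderm had the highest median of the groups described here. Of 23 genes 12 were tested, 4 through day 4 alone, which had to differ. At least 2-fold higher were 8 and none was lower, and the median log2 ratio was 1.71 (1.68 length-adjusted). APOA1, the main protein of high-density lipoprotein, was at 0, 1.54, 15.8 and 79.7 CPM on days 0, 2, 3 and 4 (5.06-fold, 3.99 to 6.49). APOA2, of the same particles, was at 2.69 and 18.2 CPM (6.77-fold), and APOB, of low-density lipoprotein, at 8.07 and 40.0 CPM (4.96-fold). These 3 were low at day 2 and highest at day 4. AFP, the fetal serum protein, was at 6.73 and 22.8 CPM (3.38-fold), and TTR, the thyroid hormone carrier, had 0 counts at day 3 and 3.82 CPM at day 4, at least 6.63-fold higher. ALB, albumin, had 0 and 2 counts. Of the tested members picked after their values were seen, FGB, a fibrinogen chain, was at 13.6 and 42.2 CPM, and FLRT3, which is a membrane protein and no plasma protein, at 110 and 107 CPM.

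The transcription factors of endoderm did not move in the same way. The 15 tested, 1 of them through day 4 alone, had a median of 0.03, 1 was at least 2-fold higher and 2 lower. Length-adjusted, 1 was higher and 1 lower. FOXA2, a pioneer factor of endoderm, was at 13.8 and 14.6 CPM, and HNF4A, a nuclear receptor that drives apolipoprotein genes, at 2.12, 13.5 and 24.4 CPM on days 2, 3 and 4. SOX17 was lower, as given above.

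Interferon-stimulated genes included several of the largest ratios. Such genes encode antiviral proteins and are switched on when STAT and IRF factors bind a tandem element in their promoters. Of 34 genes 30 were tested, 5 through day 4 alone. The 2-fold calls were 8 higher and 1 lower, and the median log2 ratio was 0.43. IFIT1, which binds foreign RNA ends, was at 3.82, 2.77, 4.50 and 46.2 CPM on days 0, 2, 3 and 4 (10.5-fold, 6.82 to 16.8). ISG15, a ubiquitin-like protein, was at 5.16, 5.19, 3.08 and 24.4 CPM (7.93-fold, 4.71 to 14.3), and IFIT3, a partner of IFIT1, at 4.48 and 19.2 CPM (4.37-fold). IFIT1 and ISG15 were thus nearly flat through day 3 and high in the day 4 library alone. DDX60, an antiviral helicase that is not on the list but among the 15 highest ratios, was at 2.98, 1.15, 0.769 and 10.7 CPM (13.97-fold, 5.18 to 52.96). OAS2 had 0 counts at day 3 and 2.55 CPM at day 4, and MX1, picked after its value was seen, had 1 and 12 counts. Not all members followed: OAS1 was lower (4.04 and 1.27 CPM), IFIT5 was at 4.80 and 5.10 CPM, IFITM1 at 139 and 97.5 CPM and B2M at 79.2 and 121 CPM.

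The promoters of the highest of these genes are shown because they share a letter pattern. A pair of GAAA copies with any 2 bases between them, the core of the interferon-stimulated response element, was searched on both strands in the 250 bases before the RefSeq start. It was present in 14 of the 21 listed genes with a window and in all 6 of those at least 2-fold higher with a window, against 3.23% of the 12018 tested genes with a window and 3.02% of all 35116 windows. Matches say only that the letters are there. Since the list holds genes known to be switched on through this element, a high share in it bears on no difference between the days. The 150 bases before the start follow, 5′ to 3′ on the gene's strand, from the RefSeq table of GRCh38.p14, with capitals marking matches: IFIT1 at chr10:89392473-89392622 (plus strand), IFIT3 at chr10:89332379-89332528 (plus), ISG15 at chr1:1013347-1013496 (plus) and DDX60 at chr4:168318753-168318902 (minus). IFIT1 and IFIT3 hold 2 matches each that read as the complement, ISG15 2 overlapping matches in the forward sense, and DDX60 2 forward matches.
IFIT1: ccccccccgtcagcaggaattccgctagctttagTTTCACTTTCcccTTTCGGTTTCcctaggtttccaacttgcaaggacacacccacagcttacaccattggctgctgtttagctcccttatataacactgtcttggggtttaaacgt
IFIT3: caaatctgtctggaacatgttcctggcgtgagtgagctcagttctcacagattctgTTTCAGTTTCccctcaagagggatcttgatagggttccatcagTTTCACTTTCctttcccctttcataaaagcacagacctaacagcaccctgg
ISG15: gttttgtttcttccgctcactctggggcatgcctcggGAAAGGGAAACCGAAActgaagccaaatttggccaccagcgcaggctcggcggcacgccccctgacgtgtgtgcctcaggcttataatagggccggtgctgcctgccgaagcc
DDX60: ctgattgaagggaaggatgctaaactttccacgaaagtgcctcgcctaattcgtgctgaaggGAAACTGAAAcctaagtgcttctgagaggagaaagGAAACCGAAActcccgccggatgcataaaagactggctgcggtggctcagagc

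**Figure D5:**
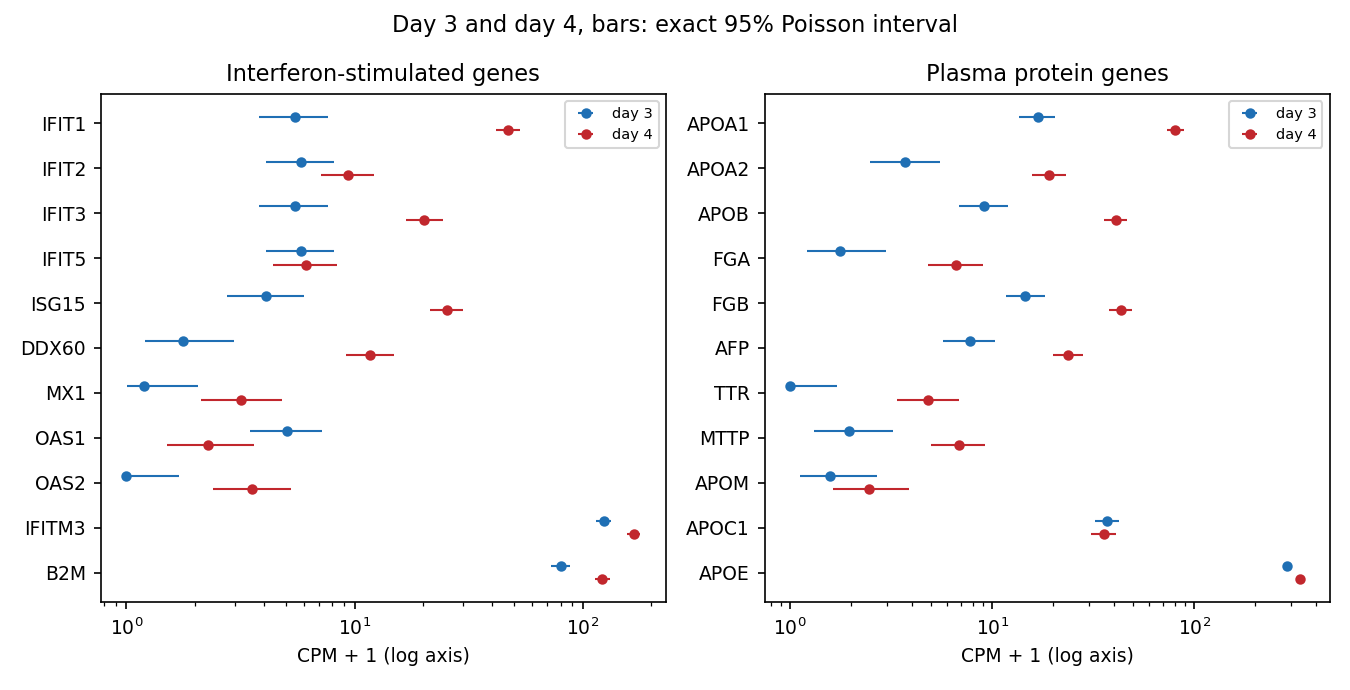
Points are CPM + 1 on a log axis at day 3 (blue) and day 4 (red), and bars the exact 95% Poisson interval of the counts, for 11 interferon-stimulated genes (left; DDX60 is not on the list) and 11 plasma protein genes (right). The intervals of IFIT1, ISG15, APOA1 and APOB are far apart between days, and those of IFIT5, APOC1 and APOM overlap.

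Housekeeping programs stayed within 2-fold. Small differences shared by genes of the ribosome and of oxidative phosphorylation shrank with the length adjustment. Of 75 cytosolic ribosomal protein genes none passed 2-fold and 74 were higher, with a median log2 ratio of 0.51. Their median length is 737 bases, and the length-adjusted median was 0.19. The 49 tested genes of oxidative phosphorylation had a median of 0.41 (0.16 adjusted). RPL4, a large subunit protein, was at 1344 and 1764 CPM. At the long end, guidance receptors and ligands had a median of -0.29 (-0.09 adjusted), with 7 of 55 at least 2-fold lower and 3 tested through day 3 alone, led by UNC5D, a netrin receptor (40.0 and 11.3 CPM). TET1, the demethylating enzyme of pluripotent cells, was at 160 and 67.4 CPM, -1.23 unadjusted and -0.81 adjusted.

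Proliferation genes differed little in size. Of the S phase genes 34 were higher and 5 lower at day 4, against 7723 and 7656 over all genes. Their median log2 ratio was 0.21 (0.20 length-adjusted). Of 39 S phase genes 1 was at least 2-fold higher, GINS2, a subunit of the replicative helicase (15.6 and 33.1 CPM), whose length-adjusted log2 ratio of 0.78 was inside the threshold. None of 41 mitosis genes passed 2-fold, and MKI67, a marker of cycling cells, was at 498 and 374 CPM, -0.41 unadjusted and 0.15 adjusted. No gene of the p53 target, glycolysis, cholesterol, Hippo or iron lists passed 2-fold. The 23 reference genes had a median of 0.21, also when length-adjusted, and 21 of them were higher.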

How the data were processed

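The 4 deposited files give, for each Entrez gene ID, RSEM-style columns of transcript length in bases, estimated (expected) count and FPKM, per the file headers. Libraries were made from 2 ug of total RNA, taken with Trizol, with an Illumina TruSeq kit, per the labels' protocols. The submitters' processing notes name BWA, Bowtie, RSEM and hg19. The sources used here give neither versions nor roles, and the series text also names TopHat and Cufflinks. The deposited expected count was the main unit. FPKM as deposited served for levels per length and 1 alternative, and the deposited length for the length adjustment.

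CPM was the expected count over its column sum. Genes absent from a file were taken as 0, and expected counts were rounded for intervals: exact Poisson for a level, exact conditional binomial for a fold, both at 95%. They cover counting error only, since reads are not independent molecules. With 0 counts in a library, the fold is a bound against 3 counts in it. RefSeq (GRCh38.p14) supplied gene names, which matched 19273 of 19390 IDs, and promoter sequences by symbol, all starts used. The computation was tested on simulated data. No test was made across libraries, because each day has 1.

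Named genes were the 15 highest and 15 lowest ratios at 10 CPM or more, up to 4 members per list and role with the largest ratios plus the most abundant, and fixed markers. Other members were named to account for a list, after their values were seen. The members, the 44 lists and the rules were chosen with earlier results of these data known. Alternatives were another pseudocount, minimum or scaling (TMM from edgeR 4.0.16 in R 4.3.3, median-of-ratios), FPKM, protein-coding genes alone, and the length adjustment in 50 bins. Computation used Python 3.11.15 with scipy 1.17.1, pandas 2.3.3, numpy 2.4.6 and, for figures, matplotlib 3.10.9.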

Additional observations from a re-analysis of the deposited data

How the results depend on the processing

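The counts of genes depended most on the pseudocount. With 0.1 CPM in place of 1, the 2-fold calls were 767 higher and 1043 lower, and the 4-fold calls 238 and 223. With 5 CPM the counts were 130 and 199, and 11 and 7. A minimum of 5 CPM gave 265 higher genes, and the deposited FPKM 412 lower genes and 83 at 4-fold. The median of the anterior neural list was -1.24 at a minimum of 5 CPM and -1.08 with FPKM, against -0.36. The other list medians moved by less than the tolerance wherever they were computed. Single genes were checked for the 348 named genes alone, without the alternatives of another minimum or of protein-coding genes. None of those called at 2-fold changed sign. The length adjustment, chosen after the data were seen, moved 101 of 348 named genes beyond their counting interval. No paired analysis was possible because each day has 1 library, and for the same reason no library could be left out. Genes with 3 counts or fewer in both libraries were given no fold, and at this depth a ratio between a few counts has a wide interval.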
